A study of Mus musculus with 16 samples.

Results

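Lysosomes break down proteins, lipids, glycans and glycosaminoglycans with acid hydrolases, and the products leave through transporters in a membrane that is lined with heavily glycosylated proteins. Most soluble hydrolases are tagged with mannose 6-phosphate in the Golgi and carried to the lysosome by receptors. The MiT/TFE transcription factors (TFEB, TFE3 and MITF) bind short E-box letters in the promoters of many of these genes and raise their expression when lysosomal load or starvation calls for it. An enlarged lysosomal compartment is a recognised feature of senescent cells, where the beta-galactosidase encoded by Glb1 is the enzyme behind the usual staining.

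The 52 genes described here comprise 17 glycosidases and sulfatases, 7 lipid hydrolases and their activators, 11 proteases, 2 acid phosphatases, 9 membrane and sterol transport proteins, 3 genes for sorting receptors and progranulin, and the 3 MiT/TFE factors. They were listed by symbol and matched to gene identifiers, out of 15235 genes with counts of ribosome-protected fragments (RPFs) and 20622 genes in total cytoplasmic RNA. Of the 52 genes, 51 had RPF counts and all 52 were in the total RNA tables. After a filter on low counts, 49 were tested in RPFs (all but Ctss, Tfeb and Mitf), 49 in total RNA (all but Ctss, Acp5 and Tfeb) and 48 for translational efficiency, the change of RPFs beyond that of total RNA. The filter uses the counts themselves, so a gene that is scarce in KM_NTC can pass through KM_4A2cr.

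KM cells were derived from lung tumours of 1 male mouse with the allele Rosa26 LSL-MYC/LSL-MYC among others, in which intranasal adenovirus had delivered Cre under the surfactant protein C promoter. Both cell lines therefore carry extra MYC. KM_NTC cells were transduced with a lentiviral CRISPR vector holding a non-targeting guide and KM_4A2cr cells with a guide against Eif4a2, which encodes an RNA helicase, and the KM_4A2cr line is a pool of 4 clones negative for eIF4A2. Neither line was treated, each was sampled in 4 replicates described as separate experiments on different days, and RPFs and total RNA of 1 replicate came from the same lysate, which gives 16 libraries.

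RPF libraries held 4512403 to 9621848 counts and total RNA libraries 5350919 to 9312622. Values per library are given as CPM (read counts relative to library size after TMM scaling), in the order of replicates 1 to 4, and levels of different genes are compared only in TPM, which accounts for transcript length. Eif4a2 itself, which still yields RNA where a guide disrupts the reading frame, had a log2 fold change (KM_4A2cr over KM_NTC) of -0.49 (SE 0.15, edgeR adjusted p = 0.0941) in RPFs and of -0.18 (SE 0.13, adjusted p = 0.504) in total RNA. Of the alveolar type II markers Sftpc and Sftpb had no count in total RNA and Nkx2-1 had 3 counts over the KM_NTC libraries, while the epithelial markers Epcam, Krt8, Krt18, Cdh1 and Cldn4 stood between 400 and 2110 TPM. Some of these markers moved in the same direction as the lysosomal genes. Epcam and Cdh1 were called higher in RPFs. The 5 epithelial markers had median log2 fold changes of 0.32 in RPFs and 0.45 in total RNA (0 called). In each kind 3 of the 5 were above 0, and the lowest stood at -0.10 in RPFs and -0.03 in total RNA. Abca3, the alveolar marker tested in both, was called higher at 0.54 and 0.62. The other alveolar marker tested in total RNA stood at 0.11 and was not called. The part of these markers in the results was not tested. The 7 macrophage markers, from a cell type rich in lysosomes, summed to between 121 and 819 CPM in KM_NTC and between 155 and 714 CPM in KM_4A2cr RPFs, mostly from Cd68 and Cd14, with Lyz2, Marco and Adgre1 at or next to 0. In bulk samples such as these, fewer cells that express a gene and less RNA per cell cannot be told apart.

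Promoter stretches are shown because MiT/TFE factors act through E-box letters near the start of many of these genes. RefSeq windows (GRCm38.p6, from 250 bases before to 50 bases after a start site) were matched by symbol for 45 of the 52 genes. They were searched for CACGTG, the core E-box, and for TCACGTGA, the longer form that is typical of lysosomal genes; both read the same on either strand and each longer match contains the core. The core was found in 14 of the 45 windows (31.1%), against 8.09% of the windows of 27025 RefSeq genes, and the longer form in 5 (11.1%), against 1.12%. Lamp1 held the core 4 times within 61 bases before its start. The next lines give the stretches of Cln3, Mcoln1 and Ctsd, which hold the longer form, of Lamp1 and Glb1, which hold the core, and of Hexa and Scarb2, with no match, 5′ to 3′ on the gene's strand with CACGTG in capitals.
Cln3: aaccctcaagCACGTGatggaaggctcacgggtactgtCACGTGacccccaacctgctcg
Mcoln1: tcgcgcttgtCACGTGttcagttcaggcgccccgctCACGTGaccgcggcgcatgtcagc
Ctsd: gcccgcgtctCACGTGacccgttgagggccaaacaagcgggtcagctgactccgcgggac
Lamp1: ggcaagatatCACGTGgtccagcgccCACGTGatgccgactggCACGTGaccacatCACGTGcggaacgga
Glb1: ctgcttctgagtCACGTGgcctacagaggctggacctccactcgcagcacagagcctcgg
Hexa: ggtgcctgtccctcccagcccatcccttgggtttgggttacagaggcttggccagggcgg
Scarb2: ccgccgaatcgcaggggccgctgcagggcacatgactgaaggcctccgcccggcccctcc
These stretches lie at chr7:126583336-126583395 (minus strand) for Cln3, chr8:3500438-3500497 (plus) for Mcoln1, chr7:142387876-142387935 (minus) for Ctsd, chr8:13159090-13159160 (plus) for Lamp1, chr9:114401018-114401077 (plus) for Glb1, chr9:59539480-59539539 (plus) for Hexa and chr5:92505658-92505717 (minus) for Scarb2. A match of letters is a description of the window and not a measured binding site.

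In KM_4A2cr cells, 13 of the 49 tested lysosomal genes had higher RPFs and none had lower RPFs at an adjusted p under 0.1. They were the hydrolase genes Hexa, Galc, Aga, Smpd1, Ctsb, Ctsh and Acp5, the activator gene Psap, the membrane protein genes Lamp1, Cd63 and Scarb2, and the receptor genes Sort1 and M6pr. These 13 make 26.5% of the 49. Over all 10291 genes tested in RPFs, 10.3% were called, 6.6% higher and 3.72% lower. In total RNA, 6 of 49 genes (12.2%) were higher and none lower, beside 6.13% of 10880 genes called, 4.35% higher and 1.78% lower. Hexa, Galc, Psap, Ctsb and Scarb2 were called in both, and Arsb in total RNA alone, where the difference between the kinds of library did not pass its test. The median log2 fold change was 0.31 in RPFs, against -0.01 over all genes tested, and 0.31 in total RNA, against 0.01. Above 0 lay 40 of 49 genes (81.6%) in RPFs, against 48.9% of all genes tested, and 44 of 49 (89.8%) in total RNA, against 51.6%.

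**Figure D1:**
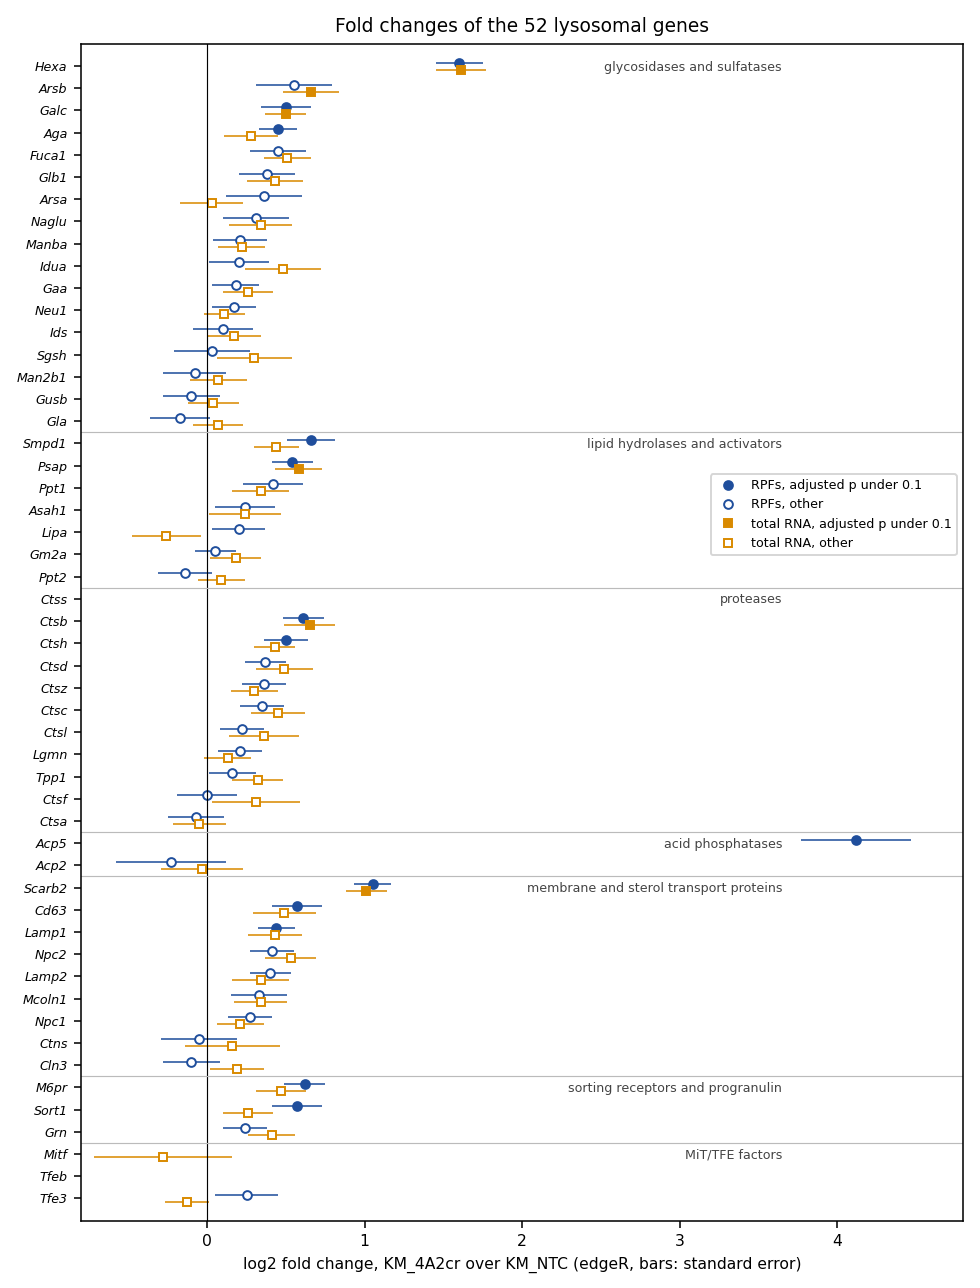
Log2 fold change of KM_4A2cr over KM_NTC (horizontal axis) of each lysosomal gene, grouped by role, in RPFs (circles) and total RNA (squares), with standard errors derived from the edgeR F statistic as bars and filled symbols at an adjusted p under 0.1. The filled symbols all lie to the right of 0, with Acp5 at 4.12, Hexa at 1.60 and Scarb2 at 1.05 in RPFs, and genes that were not tested have no symbol.

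These counts rest on the comparison within replicate pairs and on which pairs enter. Without the replicate term no lysosomal gene was called in RPFs or in total RNA, nor was any of all genes tested (edgeR, with 1 lysosomal gene at an unadjusted p under 0.05 in each). Leaving out replicate 1, 2 or 3 left 3, 3 and 2 genes called in RPFs, with 2.27%, 1.2% and 0.31% of all genes called, and 2 in total RNA each time, with 1.91%, 1.34% and 0.577% of all genes called. Leaving out replicate 4 raised the count to 34 of 49 (69.4%, beside 33.4% of all genes) in RPFs and to 39 of 50 (78% beside 29.8%) in total RNA. With library sizes alone the share of lysosomal genes called came near or under that of all genes, at 9 of 49 (18.4% beside 15.7%) in RPFs and 2 of 49 (4.08% beside 10.4%) in total RNA. Of the 13 RPF calls, Galc, Ctsh and Lamp1 were lost with upper-quartile factors and Galc, Aga, Lamp1 and Sort1 with library sizes alone. No lysosomal gene was called lower under any of these settings.

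The acid phosphatase gene Acp5, which encodes the tartrate-resistant enzyme known from osteoclasts, had the highest fold change of the list and was scarce in control cells. Its RPFs were 0.452, 0.297, 0.274 and 0 CPM in KM_NTC and 8.08, 3.93, 5.89 and 2.15 CPM in KM_4A2cr, from 10 counts in all against 149. The lowest KM_4A2cr library was above the highest KM_NTC library, and Acp5 was the only one of the 49 tested genes of the list whose RPF groups did not overlap, beside 0.981% of all genes tested with KM_4A2cr higher and 1.15% with it lower. The log2 fold change was 4.12 (SE 0.35, adjusted p = 0.00173). Acp5 passed the filter on low counts only through KM_4A2cr, where it is high, so a difference was bound to show; its fold, its rank and its place among the 13 are descriptions and no support for the list, and a filter of 50 counts in 4 libraries removed it. In total RNA it was too scarce to be tested, with 0.14, 0.269, 0.135 and 0.383 CPM in KM_NTC and 2.94, 2.54, 4.73 and 0.92 CPM in KM_4A2cr. The libraries did not overlap there either, and with the filter on low counts dropped Acp5 was called higher in total RNA too. The groups overlapped for all 49 genes of the list tested in total RNA, where 0.938% of all genes did not overlap with KM_4A2cr higher and 1.03% with it lower. The other acid phosphatase gene, Acp2, was more abundant and did not follow it. Acp2 RPFs were 117, 107, 183 and 140 CPM in KM_NTC and 186, 123, 170 and 36.0 CPM in KM_4A2cr (log2 fold change -0.23, SE 0.35, adjusted p = 0.731), so the pairs went from 0.66 in replicate 1 to -1.94 in replicate 4. Acp2 lies on chromosome 2 with Ctsa and Ctsz, and the median log2 fold change of the 833 genes tested on that chromosome was -0.21 in RPFs; its part in these values was not tested.

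Hexa, the alpha chain of beta-hexosaminidase, which degrades GM2 ganglioside, rose 3.03-fold in RPFs and 3.06-fold in total RNA by the fit. Its RPFs were 53.5, 36.4, 58.0 and 532 CPM in KM_NTC and 171, 131, 196 and 1170 CPM in KM_4A2cr. In total RNA it was 25.2, 16.9, 22.1 and 192 CPM in KM_NTC and 75.9, 59.8, 89.2 and 410 CPM in KM_4A2cr. Replicate 4 was far above the others in both lines, so the groups overlapped although every pair was higher in KM_4A2cr. The log2 fold change was 1.60 (SE 0.15, adjusted p = 0.002) in RPFs and 1.61 (SE 0.16, adjusted p = 0.00115) in total RNA, and Hexa stayed called in RPFs whichever replicate was left out.

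Galc and Arsb, which act on galactosylceramide and on dermatan sulfate, were less clear. Galc RPFs were 223, 193, 273 and 608 CPM in KM_NTC and 370, 318, 413 and 592 CPM in KM_4A2cr, and its total RNA was 127, 100, 133 and 233 CPM against 196, 156, 193 and 266 CPM. Galc was higher in KM_4A2cr in 3 of 4 RPF pairs and in 4 of 4 total RNA pairs, with log2 fold changes of 0.50 (SE 0.16, adjusted p = 0.0996) and 0.50 (SE 0.13, adjusted p = 0.073). Arsb RPFs were 7.05, 5.85, 10.7 and 18.7 CPM in KM_NTC and 15.0, 12.0, 14.2 and 14.3 CPM in KM_4A2cr (log2 fold change 0.55, adjusted p = 0.207). Its total RNA was 8.26, 5.48, 5.67 and 10.1 CPM in KM_NTC and 13.5, 7.75, 12.3 and 12.9 CPM in KM_4A2cr, higher in every pair by a log2 fold change of 0.66 (SE 0.18, adjusted p = 0.077). This Arsb call was lost with DESeq2 (adjusted p = 0.168) and, in edgeR, with upper-quartile factors (0.116) and library sizes alone (0.126). The Galc call in total RNA was lost in edgeR with upper-quartile factors (adjusted p = 0.113) and library sizes alone (0.155). Aga, an amidase for N-linked glycopeptides, had RPFs of 77.5, 49.9, 80.2 and 119 CPM in KM_NTC and 111, 71.6, 98.2 and 164 CPM in KM_4A2cr (log2 fold change 0.45, SE 0.12, adjusted p = 0.069). Its total RNA was 14.8, 9.43, 11.9 and 16.3 CPM against 23.8, 9.53, 16.1 and 15.6 CPM, which did not pass (0.28, adjusted p = 0.415). Galc lay just inside the RPF threshold and Lamp2 just outside it (0.40, adjusted p = 0.106).

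Glb1, the source of the beta-galactosidase activity used to stain senescent cells, did not pass the test in either kind of library. Its RPFs were 316, 249, 380 and 620 CPM in KM_NTC and 512, 381, 544 and 492 CPM in KM_4A2cr. Its total RNA was 122, 79.6, 109 and 191 CPM in KM_NTC and 203, 121, 182 and 149 CPM in KM_4A2cr. In replicates 1 to 3 KM_4A2cr cells had 1.62, 1.53 and 1.43 times the RPFs of KM_NTC cells, and in replicate 4 they had 0.794 times. The fit over all 4 pairs gave 0.38 (SE 0.18, adjusted p = 0.243) in RPFs and 0.43 (SE 0.18, adjusted p = 0.245) in total RNA on the log2 scale. Without replicate 4, Glb1 was called in both, at 0.61 (adjusted p = 0.000835) and 0.68 (adjusted p = 2.14e-05). The promoter of Glb1 holds the core E-box shown above, 48 bases before the start.

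The other 12 glycosidases and sulfatases did not pass the test in either kind of library. Among them Fuca1, a fucosidase, stood at 0.45 in RPFs and 0.51 in total RNA, Naglu and Sgsh, both of heparan sulfate breakdown, at 0.31 and 0.03 in RPFs, and Gla, the alpha-galactosidase that is deficient in Fabry disease, at -0.17. RPF fold changes of Man2b1 and Gusb were also below 0 (-0.08 and -0.10 on the log2 scale), while all 17 genes of this role had total RNA fold changes above 0, from 0.03 to 1.61. The median of the 17 genes was 0.21 in RPFs and 0.28 in total RNA.

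Among the genes of lipid breakdown, the sphingomyelinase gene Smpd1 and the activator gene Psap rose. Smpd1 RPFs were 29.0, 20.3, 36.9 and 54.1 CPM in KM_NTC and 59.8, 32.8, 55.5 and 65.9 CPM in KM_4A2cr, higher in 4 of 4 pairs (log2 fold change 0.66, SE 0.15, adjusted p = 0.0436). Its total RNA, 36.0, 28.8, 40.0 and 62.9 CPM in KM_NTC and 60.7, 36.8, 57.1 and 68.8 CPM in KM_4A2cr, moved the same way without passing (0.44, adjusted p = 0.12). Psap encodes prosaposin, the precursor of the saposins, which present sphingolipids to their hydrolases. Its RPFs were 1590, 1170, 1710 and 4280 CPM in KM_NTC and 2700, 1730, 2330 and 5630 CPM in KM_4A2cr, and its total RNA 513, 311, 458 and 1070 CPM against 862, 478, 658 and 1440 CPM. Psap was higher in every pair of both kinds, by log2 fold changes of 0.54 (SE 0.13, adjusted p = 0.0496) and 0.58 (SE 0.15, adjusted p = 0.0705). Ppt1, Asah1, Lipa, Gm2a and Ppt2, which encode thioesterases, acid ceramidase, acid lipase and the GM2 activator, ranged from -0.14 to 0.42 in RPFs and none passed. Lipa was the only one of them whose total RNA was below 0 (-0.26, SE 0.22, adjusted p = 0.577).

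Of the 10 proteases tested in RPFs, the cathepsin genes Ctsb and Ctsh rose. Ctsb RPFs were 957, 718, 1310 and 2630 CPM in KM_NTC and 1740, 1160, 1930 and 3280 CPM in KM_4A2cr (log2 fold change 0.61, SE 0.13, adjusted p = 0.0394). Its total RNA was 516, 352, 568 and 1100 CPM in KM_NTC and 884, 580, 991 and 1370 CPM in KM_4A2cr (0.65, SE 0.16, adjusted p = 0.0581). Both were higher in every pair, and cathepsin B is a cysteine protease of broad specificity. Ctsh, an aminopeptidase, had RPFs of 306, 341, 568 and 1080 CPM in KM_NTC and 576, 494, 665 and 1360 CPM in KM_4A2cr (0.50, SE 0.14, adjusted p = 0.0845). Its total RNA was 160, 146, 249 and 398 CPM against 249, 207, 292 and 507 CPM (0.43, adjusted p = 0.119). The aspartic protease gene Ctsd was higher in 4 of 4 pairs of both kinds and did not pass (0.37, adjusted p = 0.135, in RPFs, and 0.49, adjusted p = 0.174, in total RNA). Ctsz, Ctsc, Ctsl, Lgmn and Tpp1 ranged from 0.16 to 0.36 in RPFs, and Ctsf and Ctsa stood at -0.00 and -0.07. Ctss, which encodes a cathepsin of antigen-presenting cells, had 1 count in each cell line over the total RNA libraries.

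The membrane protein gene with the clearest difference was Scarb2, which encodes LIMP-2, the carrier of glucocerebrosidase to the lysosome. Its RPFs were 154, 169, 241 and 619 CPM in KM_NTC and 355, 351, 509 and 1130 CPM in KM_4A2cr. In total RNA it was 74.1, 71.6, 106 and 248 CPM in KM_NTC and 157, 153, 241 and 400 CPM in KM_4A2cr. It was higher in every pair of both kinds, 2.07-fold in RPFs by the fit, and the groups overlapped through replicate 4. The log2 fold change was 1.05 (SE 0.12, adjusted p = 0.00453) in RPFs, where it missed the threshold without replicate 3 (adjusted p = 0.117), and 1.01 (SE 0.13, adjusted p = 0.00389) in total RNA.

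Lamp1 and Cd63, abundant glycoproteins of the lysosomal membrane, rose in RPFs and not in total RNA by the test. Lamp1 RPFs were 1320, 766, 1320 and 2260 CPM in KM_NTC and 2030, 1020, 1740 and 2810 CPM in KM_4A2cr (0.44, SE 0.12, adjusted p = 0.0801), and its total RNA was 1160, 573, 942 and 1520 CPM against 1570, 810, 1440 and 1690 CPM (0.43, adjusted p = 0.207). Cd63 RPFs were 1970, 1200, 2010 and 3830 CPM in KM_NTC and 3380, 2050, 3240 and 3930 CPM in KM_4A2cr (0.57, SE 0.16, adjusted p = 0.0773), and its total RNA was 466, 192, 337 and 645 CPM against 797, 314, 586 and 504 CPM (0.49, adjusted p = 0.239). Their fold changes were close in both kinds of library, and the difference between the kinds was 0.01 for Lamp1 (adjusted p = 0.975) and 0.09 for Cd63 (adjusted p = 0.749). Npc2 and Npc1, which hand cholesterol out of the lysosome, stood at 0.41 (adjusted p = 0.126) and 0.27 (adjusted p = 0.264) in RPFs. Lamp2, Mcoln1, a calcium channel, Ctns, the cystine exporter, and Cln3 stood at 0.40, 0.33, -0.05 and -0.10.

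The receptor genes M6pr and Sort1, which carry hydrolases from the Golgi, rose in RPFs. M6pr RPFs were 553, 319, 579 and 1070 CPM in KM_NTC and 1010, 509, 874 and 1380 CPM in KM_4A2cr (0.62, SE 0.13, adjusted p = 0.033), and its total RNA was 665, 402, 656 and 976 CPM against 1030, 569, 951 and 1120 CPM (0.47, adjusted p = 0.142). Sort1 RPFs were 10.7, 7.83, 8.21 and 25.4 CPM in KM_NTC and 17.2, 8.85, 11.2 and 46.8 CPM in KM_4A2cr (0.57, SE 0.16, adjusted p = 0.0807; not called with DESeq2, adjusted p = 0.117, or with library sizes alone, 0.44, adjusted p = 0.134), and its total RNA was 11.8, 7.09, 9.72 and 21.0 CPM against 14.4, 9.53, 8.32 and 29.2 CPM (0.26, adjusted p = 0.44). Both were higher in 4 of 4 RPF pairs, while in total RNA M6pr was higher in 4 pairs and Sort1 in 3. Grn, which encodes progranulin, a partner of prosaposin and a ligand of sortilin, stood at 0.24 (adjusted p = 0.355) in RPFs and 0.41 (adjusted p = 0.192) in total RNA.

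**Figure D2:**
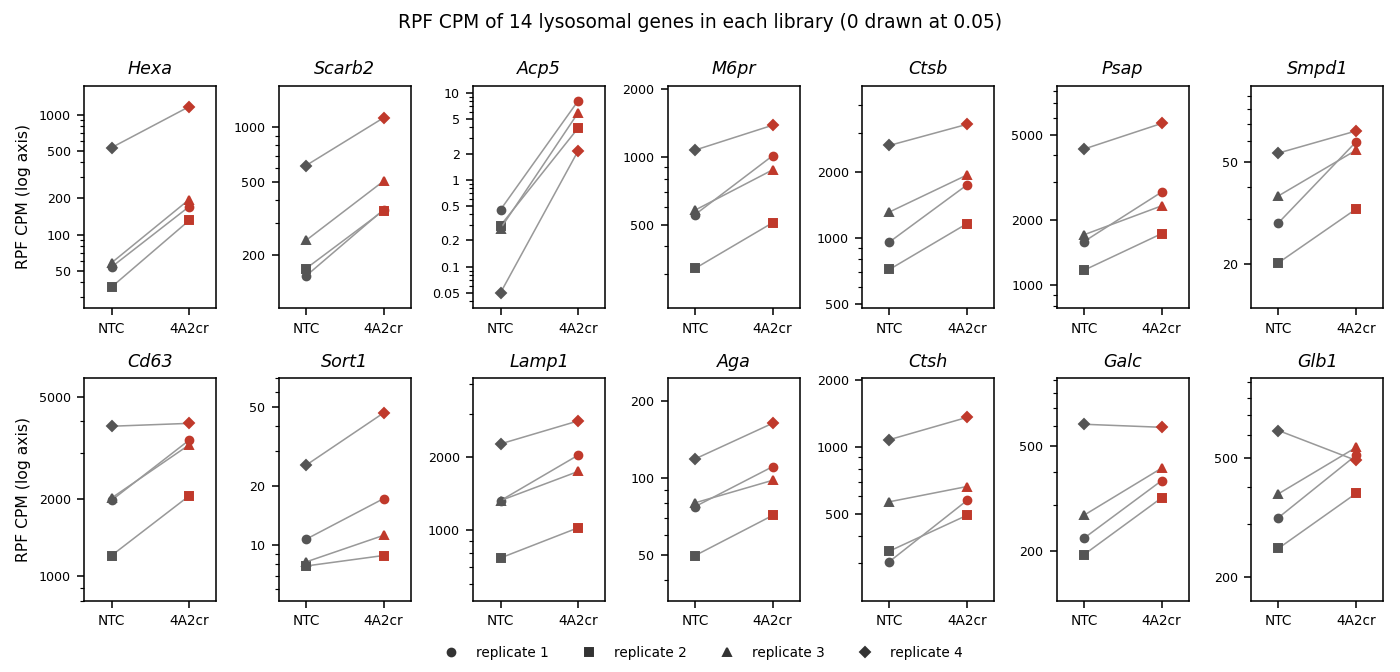
RPF CPM (log axis) of 14 lysosomal genes in every library, with grey lines joining KM_NTC and KM_4A2cr libraries of the same replicate and a symbol for each replicate number. Replicate 4 (diamonds) lies above the other replicates in KM_NTC for every gene shown except Acp5, and Glb1 is the panel whose replicate 4 line falls clearly, from 620 to 492 CPM.

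Among the MiT/TFE factors, Tfeb and Mitf were scarce, with means of 0.73 and 0.9 TPM in KM_NTC, and Tfe3 stood at 12.4 TPM. Tfe3 and Mitf did not pass where they were tested, and Tfeb was tested in neither kind of library. Tfe3 RPFs were 13.9, 10.9, 10.3 and 11.5 CPM in KM_NTC and 11.6, 12.0, 12.9 and 21.8 CPM in KM_4A2cr (0.25, SE 0.20, adjusted p = 0.478). Its total RNA was 15.8, 23.5, 20.1 and 22.8 CPM in KM_NTC and 17.1, 19.7, 16.6 and 21.4 CPM in KM_4A2cr (-0.13, SE 0.14, adjusted p = 0.663). Tfe3 was the only one of them tested in both kinds of library. Tfeb RPFs were 1.09, 0.694, 1.64 and 1.89 CPM in KM_NTC and 0.724, 0.983, 0.841 and 3.50 CPM in KM_4A2cr, and its total RNA was 0.56, 0.898, 0.405 and 1.72 CPM against 0.816, 0.635, 0.378 and 1.61 CPM. Mitf RPFs were 0.452, 0.397, 0.274 and 0.419 CPM in KM_NTC and 0.241, 0, 0.561 and 0.538 CPM in KM_4A2cr, and its total RNA was 1.26, 1.71, 1.48 and 2.10 CPM against 1.96, 2.03, 0.189 and 0.92 CPM (-0.28, SE 0.44, adjusted p = 0.793). For all 3 factors the libraries of both lines overlapped, and at 0 to 13 counts per RPF library a change of Tfeb or Mitf was not detectable at this depth. These factors act mostly through their place in the cell, which RPF and RNA counts do not show.

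Among genes with a window, the median fold change was not higher where the window held the core E-box. The 14 genes that hold it had a median log2 fold change of 0.22 in RPFs (from -0.17 to 0.44) and of 0.30 in total RNA, and the 28 tested genes whose window lacks it had medians of 0.30 (from -0.23 to 4.12) and 0.33. Of the 13 genes called in RPFs, 8 had a window and only that of Lamp1 held the core. Of the 34 genes with a window that were tested and not called, 13 held it. The windows of Hexa, Scarb2, Psap, Smpd1, Cd63, Galc and Acp5 lacked these letters. In RPFs the medians of pairs 1 to 4 were 0.50, 0.40, 0.16 and -0.34 for genes with the core. For those without they were 0.66, 0.44, 0.30 and -0.04, so RPF medians were lower with the core in each pair. In total RNA the medians were 0.49, 0.48, 0.44 and -0.36 with the core and 0.59, 0.44, 0.42 and -0.23 without. There they were higher with the core in pairs 2 and 3 and lower in pairs 1 and 4. These differences were not tested. Ctsb, Ctsh, M6pr, Sort1 and Aga, all called in RPFs, had no window and are on neither side. The part of the MiT/TFE factors in these values was not tested.

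Translational efficiency of the lysosomal genes did not pass the test for any gene. The 48 tested genes had differences between the RPF and the total RNA log2 fold change from -0.29 (Cln3) to 0.47 (Lipa), with a median of -0.04 against -0.02 over all genes tested. At an unadjusted p under 0.05 lay 3 of the 48, Lipa (0.47, SE 0.21) and Arsa (0.33, SE 0.16) above 0 and Gla (-0.23, SE 0.11) below, with adjusted p of 0.324 or more from edgeR. DESeq2 called 0 of the 48 as well, with 0 at an unadjusted p under 0.05. Over all 9989 genes tested in edgeR, 14.1% lay at an unadjusted p under 0.05 and 2.91% were called, 1.87% higher and 1.04% lower. For Hexa and Scarb2, the difference was -0.02 (SE 0.10) and 0.04 (SE 0.09), which is small beside their fold changes of 1.60 and 1.05.

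**Figure D3:**
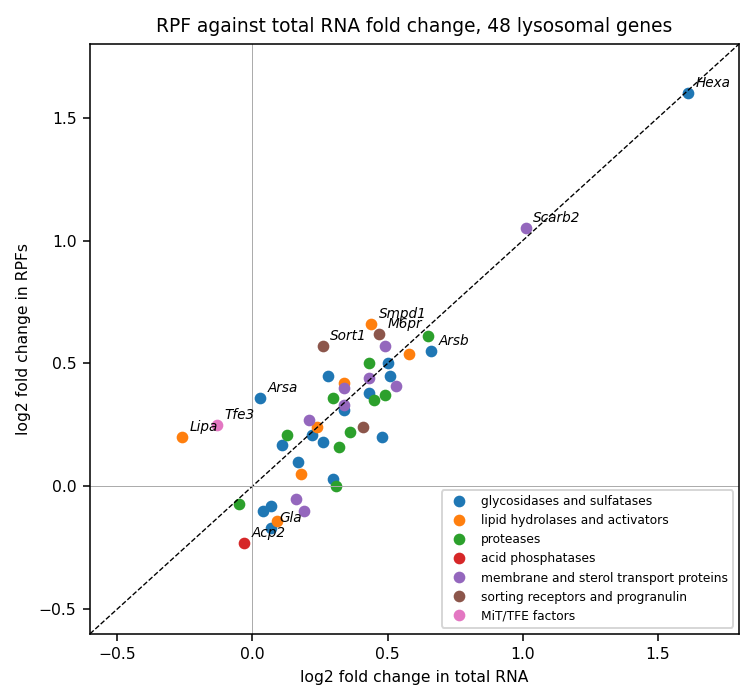
Log2 fold change in RPFs (vertical axis) against log2 fold change in total RNA (horizontal axis) for the 48 lysosomal genes tested in both, coloured by role, with a dashed line where both are equal. Hexa and Scarb2 lie on the line at the upper right, and Lipa, at -0.26 in total RNA and 0.20 in RPFs, lies farthest above it.

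The replicate pairs differed, and replicate 4 went against the others for many of these genes. The median log2 ratio of KM_4A2cr to KM_NTC (CPM plus 0.5) over the 49 genes tested in RPFs was 0.62, 0.43, 0.28 and -0.12 in pairs 1 to 4, with 47, 47, 37 and 18 genes above 0. In total RNA it was 0.56, 0.46, 0.43 and -0.24, with 48, 47, 41 and 15 genes above 0. The medians over all genes tested lay between -0.05 and 0.02 in every pair.

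Of the 34 genes that were higher in RPF pairs 1 to 3, 16 were higher in pair 4 as well (Hexa, Aga, Smpd1, Psap, Ctsb, Ctsd, Ctsh, Ctsz, Acp5, Lamp1, Lamp2, Cd63, Scarb2, Npc2, Sort1 and M6pr), and 17 were lower in it, among them Glb1, Gaa, Naglu, Sgsh, Manba, Ppt1, Asah1, Mcoln1 and Ctns. The remaining gene of the 34, Ctsc, had 624 CPM in both lines in pair 4. In pair 4 the RPF log2 ratio was -1.94 for Acp2, -1.15 for Ctns, -1.06 for Sgsh, -0.79 for Gla, -0.78 for Man2b1, -0.74 for Cln3, -0.73 for Gusb and -0.68 for Ctsa. Total RNA of the same genes was lower in that pair too, with log2 ratios of -1.50 for Ctns and -0.94 for Sgsh. The KM_NTC library of this pair was itself high for the list. In KM_NTC, replicate 4 was the highest of the 4 RPF libraries for 41 of the 49 genes, with a median of 0.99 on the log2 scale over the mean of the other replicates, and in KM_4A2cr it was the highest for 29 and the lowest for 9, with a median of 0.44. The counts in this paragraph were not made over all genes tested. They therefore do not show whether the pattern of replicate 4 is particular to the list.

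**Figure D4:**
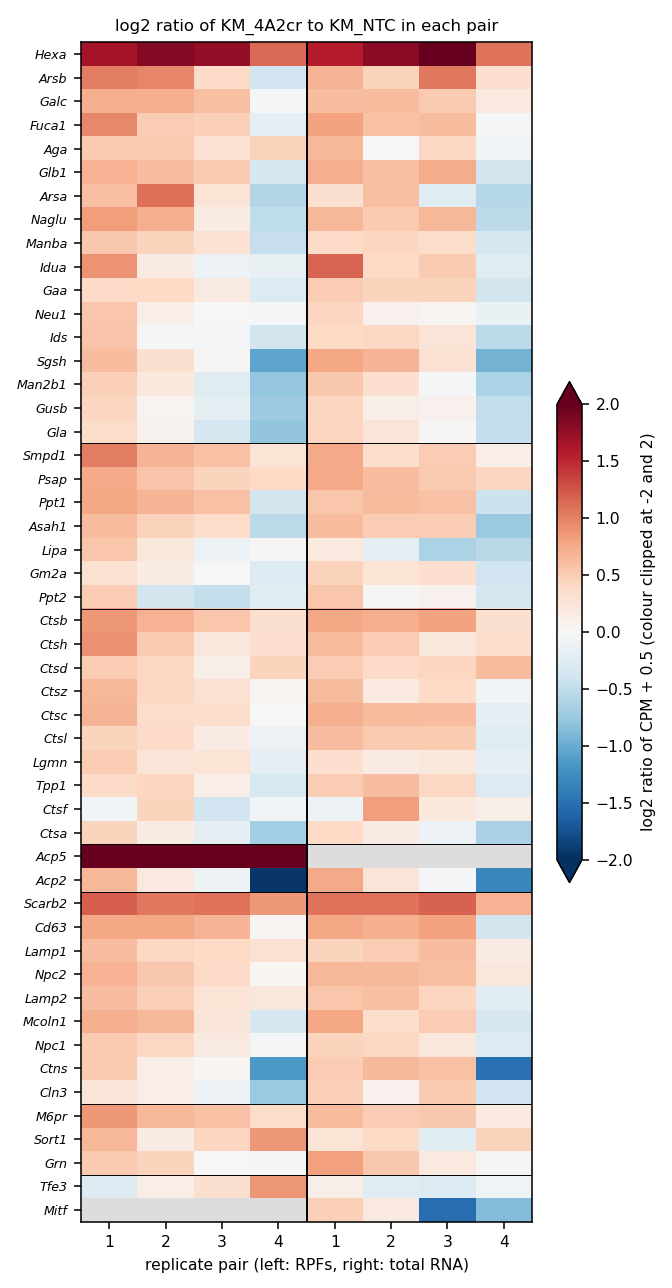
Colour map of the log2 ratio of KM_4A2cr to KM_NTC (CPM plus 0.5, colours clipped at -2 and 2) for each tested lysosomal gene in each replicate pair, RPFs on the left and total RNA on the right, with horizontal lines between roles and grey where a gene was not tested. The first 3 columns of each kind are mostly red, and the fourth is blue for Acp2 (-1.94 in RPFs), Ctns (-1.15) and Sgsh (-1.06) and red for Hexa (1.13) and Scarb2 (0.87).

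By level, the list spanned from Ctsd, at rank 109 of all genes, to Ctss, which was almost absent. In KM_NTC total RNA the mean was 1410 ± 729 TPM for Ctsd (SD, n = 4), 882 ± 166 for Ctsl, 860 ± 216 for Lamp1, 764 ± 264 for Cd63, 560 ± 146 for Lamp2 and 485 ± 98.7 for M6pr. At the other end stood Mitf at 0.9 ± 0.259, Tfeb at 0.73 ± 0.372, Acp5 at 0.33 ± 0.15 and Ctss at 0.0575 ± 0.115 TPM. In between lay Glb1 at 95.4 ± 21.1 and Hexa at 54.1 ± 65.0 TPM, the SD of Hexa being above its mean because of replicate 4. In this order 50 of the 51 neighbouring genes overlapped in the range of their KM_NTC libraries, the exception being Sgsh above Lipa, and 19 genes had a mean of 100 TPM or more. In KM_4A2cr Ctsd was again the highest, at 1730 ± 818 TPM, and Hexa stood at 113 ± 85.0 TPM.

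The 51 genes of the list with RPF counts together took 2.31% to 4.73% of the RPF counts of a KM_NTC library and 2.89% to 5.03% of a KM_4A2cr library. In total RNA all 52 genes took 0.975% to 2.04% and 1.27% to 1.97%. The highest KM_NTC share was in replicate 4 for both kinds. Within the RPFs of the list, Ctsl, a cysteine protease, alone gave 18.0% to 26.6% in every library, the lowest in KM_4A2cr replicate 4.

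**Figure D5:**
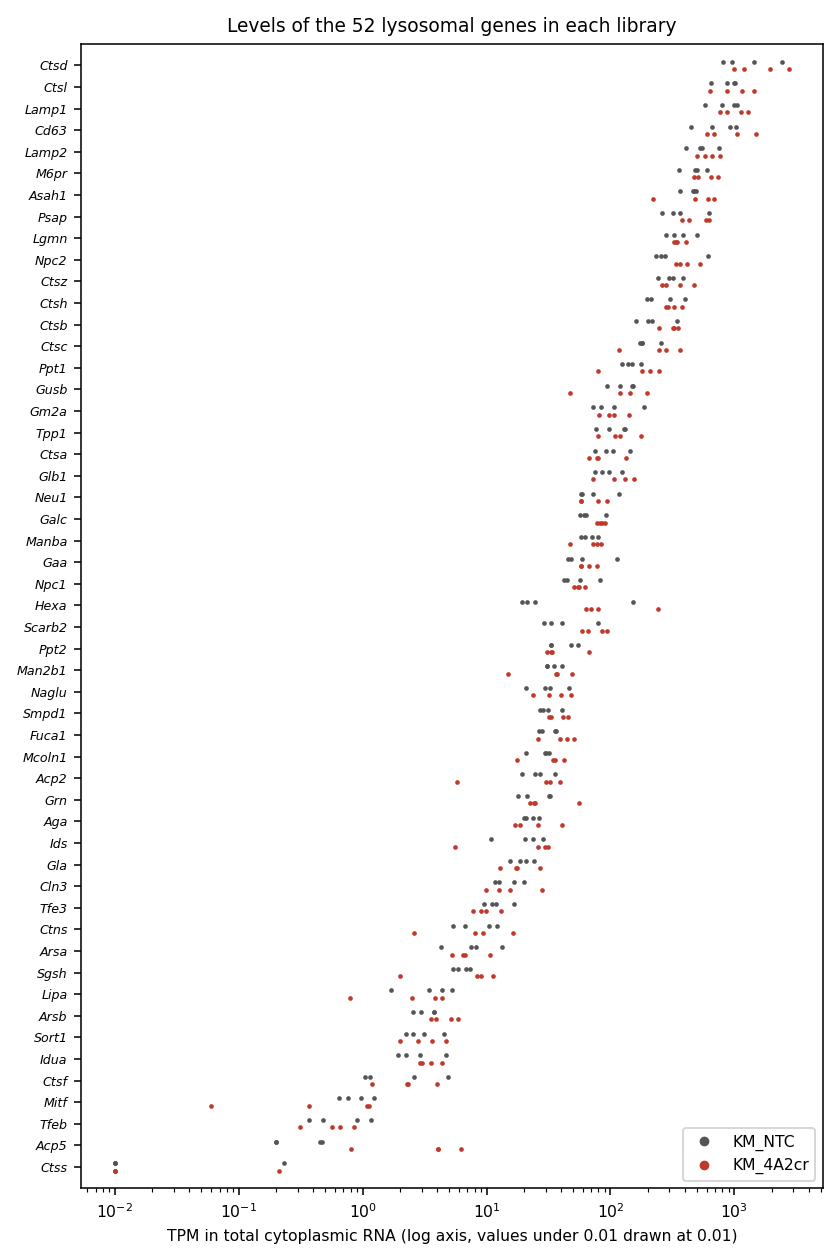
TPM in total RNA (log axis) of the 52 lysosomal genes in each of the 8 libraries, ordered by the KM_NTC mean, with KM_NTC in grey and KM_4A2cr in red. Ctsd is at the top with 814 to 2430 TPM in KM_NTC, and Acp5 is the gene whose red and grey points stand apart.

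In the annotation used for total RNA, 30 of the 52 genes had 1 transcript and 22 had more. Of these 22, Sgsh, Idua and Acp5 had a transcript whose share of the gene's TPM did not overlap between the lines. No test was made of shares. The same count was not made over all genes with more than 1 transcript, so it is a description only. For Sgsh the transcript used for RPFs took 46.3% (37.8% to 52.3%) in KM_NTC and 57.1% (52.6% to 63.9%) in KM_4A2cr, and for Idua it took 57.8% (51.4% to 65.6%) and 46.8% (41.8% to 50.2%), on 212 and 262 counts for Sgsh and 82 and 69 for Idua. Lamp2, whose splice forms differ in their membrane end and tail, had 3, which took 50.0%, 31.3% and 18.7% of its TPM in KM_NTC on average and 48.5%, 32.5% and 19.0% in KM_4A2cr, with ranges that overlapped. Among the genes called in RPFs, Cd63 had 3 transcripts, of which the highest took 36.6% in KM_NTC and 36.0% in KM_4A2cr, and M6pr had 2 at near equal shares in both lines. Aga and Sort1 had 2 each, the one used for RPFs at 53.3% and 47.9% for Aga and at 54.9% and 51.1% for Sort1, again with overlapping ranges, and Acp5 had 4, each on 0 to 3 counts in KM_NTC. Shares this even can come from transcripts that share most of their sequence, between which the assignment of reads is uncertain, and RPFs were counted on 1 transcript per gene.

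Other lysosomal genes, from lists made for comparison, were mostly above 0 as well. Of 30 other lysosomal enzymes tested in RPFs, 29 were above 0, against 48.9% of all genes tested, with a median of 0.40. Of these 30, 8 rose and 0 fell, beside 6.6% and 3.72% of all genes tested. The 3 with the smallest p were Ggh, a folate polyglutamate hydrolase, at 1.82 (SE 0.19, adjusted p = 0.00266), Ctso, a cathepsin, at 1.08 (SE 0.21, adjusted p = 0.0234), and Scpep1, a carboxypeptidase, at 0.60 (SE 0.13, adjusted p = 0.0413). In total RNA 7 of 30 rose and 0 fell, beside 4.35% and 1.78% of all genes tested. Ggh was 12.1 ± 5.44 RPF CPM in KM_NTC and 40.5 ± 11.3 in KM_4A2cr (SD, n = 4), and its groups did not overlap. Over all genes tested in RPFs, 0.981% did not overlap with KM_4A2cr higher.

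Of 29 other membrane proteins, 26 were above 0 in RPFs, against 48.9% of all genes tested, with a median of 0.33. Of these 29, 5 rose and 1 fell (Litaf, an endosomal protein, -0.52, SE 0.12, adjusted p = 0.0504), beside 6.6% and 3.72% of all genes tested. Sidt2 (0.92, SE 0.12, adjusted p = 0.00712), Tmem192 (1.14, SE 0.16, adjusted p = 0.00844) and Atp13a2, a polyamine exporter (0.98, SE 0.17, adjusted p = 0.018), had the smallest p. For Tmem192 and Atp13a2, translational efficiency was called higher, at 0.55 (SE 0.16, adjusted p = 0.0892) and 0.85 (SE 0.20, adjusted p = 0.0368), and Atp13a2 total RNA stood at 0.13 (adjusted p = 0.729). In total RNA 4 of 29 rose and 0 fell, beside 4.35% and 1.78% of all genes tested.

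Genes that tag and deliver hydrolases lay on both sides of 0. Of 13 genes for mannose 6-phosphate tagging, receptors, GGA adaptors and retromer, 7 were above 0 in RPFs with a median of 0.06, and 0 were called in either direction (edgeR, with Nagpa and Tmem251 at an unadjusted p under 0.05). Over all genes tested in RPFs, 48.9% were above 0, 10.3% were called and 23.4% lay at an unadjusted p under 0.05. Nagpa, which uncovers the mannose 6-phosphate tag, stood at -0.51 (SE 0.19, adjusted p = 0.148), Tmem251 at 0.35 (SE 0.15, adjusted p = 0.188) and Vps29, of the retromer, at -0.29 (SE 0.13, adjusted p = 0.214). The cation-independent receptor Igf2r stood at 0.16 (adjusted p = 0.537), while M6pr, the cation-dependent receptor described above, was called.

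Of 10 tested genes that control the MiT/TFE factors at the lysosomal surface (Rag GTPases, Ragulator, folliculin and its partners), 5 were above 0 in RPFs with a median of 0.00, and 0 were called in RPFs or total RNA. Over all genes tested, 10.3% were called in RPFs and 6.13% in total RNA. Lamtor2 stood at -0.34 (SE 0.12, adjusted p = 0.147), Lamtor1 at 0.45 (SE 0.18, adjusted p = 0.178) and Rraga at -0.31 (SE 0.15, adjusted p = 0.245). Rragc was called in translational efficiency, at 0.44 (SE 0.10, adjusted p = 0.0425), with 0.26 in RPFs and -0.18 in total RNA.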

How the data were processed

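RPFs and total cytoplasmic RNA of KM_NTC and KM_4A2cr cells were measured in 16 libraries, 4 per group. The RPF tables deposited by the authors hold counts, in whole numbers, per coding sequence, made by trimming with cutadapt 1.18, removal of rRNA and tRNA reads, alignment to 1 transcript per gene (GENCODE vM27), UMI-tools 1.0.1 deduplication and omission of the ends of each coding sequence. The total RNA tables deposited by the authors hold expected counts and TPM of each isoform, from RSEM 1.3.3 and Bowtie2 2.3.5.1 alignment. Duplicates were collapsed before counting, so counts are close to molecules, and scaling within each kind of library hides a change of all RPFs or all mRNA. No columns of other samples were present.

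Expected counts were summed per gene and rounded, and RPF transcripts that a library does not list were set to 0. Genes were filtered with filterByExpr, scaled by TMM and tested with edgeR 4.0.16 (glmQLFit and glmQLFTest, R 4.3.3) with terms for the cell line and for the replicate number, and adjusted p-values are Benjamini-Hochberg values over all genes tested, with a threshold of 0.1. For translational efficiency, all 16 libraries were fitted together in edgeR (terms for lysate, kind and replicate within kind), and the test asked whether the RPF difference exceeded that of total RNA. Standard errors (SE) were derived as the absolute log2 fold change divided by the square root of the F statistic of the edgeR test. The scripts were tested on simulated data. Per the labels the replicates were harvested on different days, without stating that a number is the same day in both lines. The replicate term therefore assumes that libraries of the same number belong together. Such libraries deviated together from their group means (correlations across genes of 0.575 to 0.782 in RPFs and 0.611 to 0.756 in total RNA). Libraries of different numbers were not compared in this way and each group mean includes replicate 4, so these values do not establish the pairing. With the replicate term, p-values measure the spread of the differences within replicate pairs of these cultures. They hold no spread between clones or mice.

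The lysosomal genes and the comparison lists were chosen with earlier results of these data known. Values in every library are given for genes called in RPFs, total RNA or translational efficiency and for Glb1, Hexa, Acp5, Tfeb, Tfe3 and Mitf; other genes are given by fold change or range, and of each comparison list the 3 with the smallest RPF p are given, with Litaf, Rragc and Igf2r, outside that rule, named after their values were seen. The list gets no test of its own, since genes are not replicates. Pip4p1 was matched for Tmem55b through RefSeq synonyms, and Gnptg was not analysed here. Genes in the promoter search that had no RefSeq window were Ctsb, Sort1, Asah1, Npc1, M6pr, Ctsh and Aga. Coordinates are of the RefSeq build GRCm38.p6, used for promoters and chromosomes only. A further allele that both cell lines share is not reported here. Alternatives were other scalings, DESeq2 1.42.0, no or a stricter filter, no replicate term, a threshold of 0.05, the RPF transcript alone for total RNA and leaving out each replicate.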

Additional observations from a re-analysis of the deposited data

Results flagged for a closer look

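In 72 groups of 4 libraries (18 genes with values in every library, 2 kinds of library and 2 cell lines), 7 held a library far from the other 3 by Dixon's criterion (the gap to the nearest library against the range of the group), and in all 7 it was replicate 4 and the highest. Chance flags about 1 in 20 such groups, and genes of the same library are not independent.

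For Hexa, replicate 4 stood at 532 CPM in KM_NTC RPFs, against 36.4 to 58.0 in the other replicates, and at 1170 CPM in KM_4A2cr RPFs, against 131 to 196. In total RNA, Hexa replicate 4 stood at 192 CPM in KM_NTC, against 16.9 to 25.2, and at 410 CPM in KM_4A2cr, against 59.8 to 89.2. Sort1 RPFs were 25.4 CPM in KM_NTC replicate 4, against 7.83 to 10.7. In KM_4A2cr RPFs, replicate 4 stood at 3.50 CPM for Tfeb, against 0.724 to 0.983 and from 13 counts, and at 21.8 CPM for Tfe3, against 11.6 to 12.9. What set these libraries apart was not tested.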

How the results depend on the processing

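No lysosomal gene was called lower in RPFs, total RNA or translational efficiency under any setting run. The fit pairs libraries by replicate number (replicate block); with no replicate block, 0 lysosomal genes were called in RPFs, 0 in total RNA and 0 in translational efficiency, and 0 of all genes tested. In RPFs the count was 7 at a threshold of 0.05 (14.3% of the list beside 4.3% of all genes). It was between 2 and 34 when 1 replicate was left out (2 without replicate 3, 34 without replicate 4). In total RNA the count was 10 with DESeq2 (20.4% of the list beside 5.41% of all genes) and 2 with library sizes alone (4.08% beside 10.4%). It was 11 with no filter on low counts (21.2% beside 7.18%) and 2 at a threshold of 0.05 (4.08% beside 2.95%, which is near the share of all genes). When 1 replicate was left out it was between 2 and 39. Under the remaining settings the counts were 9 to 15 in RPFs, with 8.72% to 15.7% of all genes called. In total RNA they were 4 to 6, with 4.81% to 6.19% of all genes called. Translational efficiency stayed at 0 under the settings run for it, which did not include median ratio factors. Library sizes alone shifted all genes tested to a median of -0.14 (RPFs) and -0.15 (total RNA) on the log2 scale, where the lysosomal genes stood at 0.18 and 0.15. Between all settings the median of the lysosomal genes lay between 0.176 and 0.447 (RPFs) and between 0.149 and 0.506 (total RNA). The total RNA log2 fold change of Mitf lay between -0.63 and 0.04 when 1 replicate was left out, with its sign turned without replicate 3 (adjusted p = 0.99). Apart from the effect of fewer samples, the causes were not tested. Acp5, Tfeb and Mitf had too few counts for firm folds.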
